A study of Mus musculus with 24 samples.

Results

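Control_EC12 against Control asks what 5 weeks of the EC-12 supplement were accompanied by in the prefrontal cortex of mice without early-life separation. EC-12 is a preparation of killed cells of the gut bacterium Enterococcus faecalis. The comparison took all 12 libraries that the labels place in these groups, 6 per group, out of 24 in the series. All mice were wild-type adult males. Control mice had neither the separation nor the supplement, and Control_EC12 mice had the supplement alone. The other 12 libraries came from mice separated from the dam as pups (MS), without or with EC-12 (MS_EC12). The labels give no strain, dose, route, age in weeks or time of day of collection. They do not state whether libraries are separate animals, so the p-values cover only library-to-library spread, which may be partly technical.

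Some background helps to place the genes below. The circadian clock of each cell is a feedback loop in which CLOCK and BMAL1 switch on Per and Cry genes at E-box sites, and the PER and CRY proteins then hold their own activators back. The endoplasmic reticulum folds secreted and membrane proteins with chaperones such as BiP, the product of Hspa5, and cells adjust the supply of these chaperones through the unfolded protein response. Killed bacteria carry cell-wall material that Toll-like and NOD-like receptors can detect.

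Total counts ran from 27229269 to 36336886 in Control and from 26250197 to 33899807 in Control_EC12. Libraries differed in how their counts depended on the GC content of genes. The GC slope used here is the change in a gene's log2 CPM (counts scaled to library size), relative to its mean over libraries, per 10 percentage points of GC. It lay between −0.144 and −0.0852 in Control, with a median of −0.121. In Control_EC12 it ran from −0.162 to 0.429 with a median of −0.116. Replicate 3 (0.429) and replicate 4 (0.0964) of Control_EC12 were above 0, while the other 4 overlapped the Control range or lay just under it. The mean difference of 0.112 had p = 0.396 in an exact 2-sided permutation test, and without replicate 3 it was 0.0254. Over the series 7 libraries were above 0. Results are therefore given from a fit of all 24 libraries and from a fit of the 17 libraries at or below 0, in which Control had 6 libraries and Control_EC12 had 4.

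**Figure D1:**
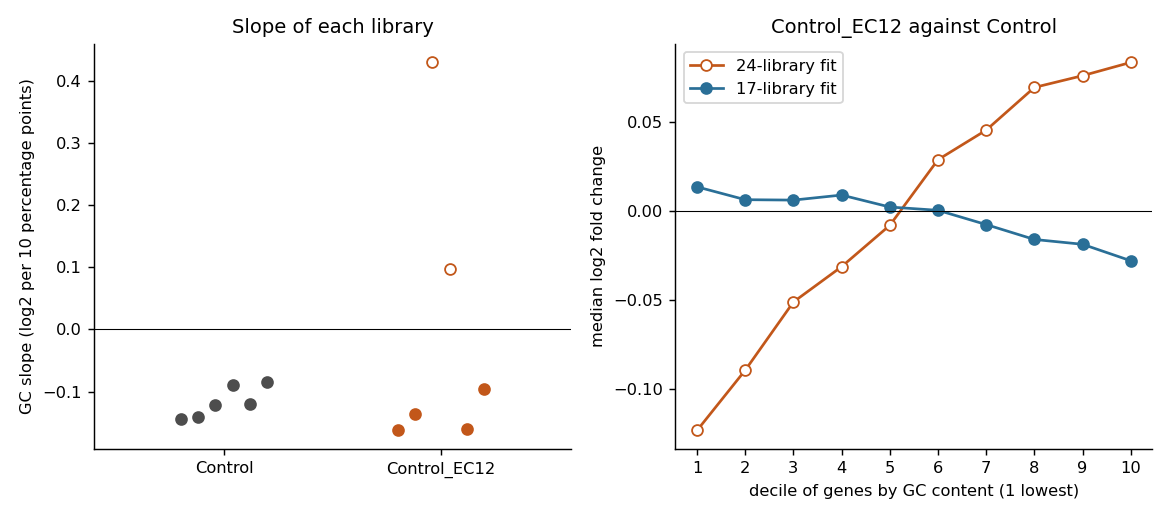
Left, GC slope of each library (log2 units per 10 percentage points of GC) in Control and Control_EC12, with open circles for slopes above 0. Right, median log2 fold change of Control_EC12 against Control in deciles of the genes ordered by GC content, which ran from −0.12 to 0.084 in the 24-library fit and from 0.014 to −0.028 in the 17-library fit.

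The fold change of a typical gene moved with its GC content in the 24-library fit. The median log2 fold change was −0.12 in the decile of genes with the lowest GC content and 0.084 in the highest decile. In the 17-library fit the same medians were 0.014 and −0.028. The 2 fits thus lean in opposite directions along GC content, more weakly in the second.

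Of 18380 genes tested with all 24 libraries, 4 (0.0218%) passed an adjusted p of 0.05. Of these, 2 rose, Usp43 among them, and Per2 and Banp fell. In the 17-library fit 87 of 19098 genes (0.456%) passed, of which 23 rose and 64 fell, and the same 4 genes were among them. With 24 libraries 1642 genes had an unadjusted p under 0.05 (5.62% of all genes higher and 3.31% lower), and with 17 libraries 2661 did (7.12% higher and 6.82% lower). The 64 genes that fell with 17 libraries had a median Control level of 61.2 CPM and a median log2 fold change of −0.38. The 23 that rose had a median level of 8.6 CPM and a median of 0.46. All 64 falls and 22 of the 23 rises had the same sign in the 24-library fit, which shares its libraries. The exception was Cpeb4, named here for that reason after its values were seen, at −0.053 with 24 libraries and 0.18 with 17. In all 12 libraries 245 genes (1.33%) had CPM ranges that did not overlap between the groups, 94 higher and 151 lower in Control_EC12. Of the 36 gene lists used below, 30 had no member that passed in either edgeR fit, and DESeq2 called 5 members over those 30 lists: Nfil3, Cd74, Plin4, Htr1b and Neurod6. With the GC slope as a covariate edgeR also called Nr1d2, Herpud1, Dnajb4, Insig1, Lrrtm2, Htr1b and Mfsd2a, list members that passed with neither 24 nor 17 libraries.

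**Figure D2:**
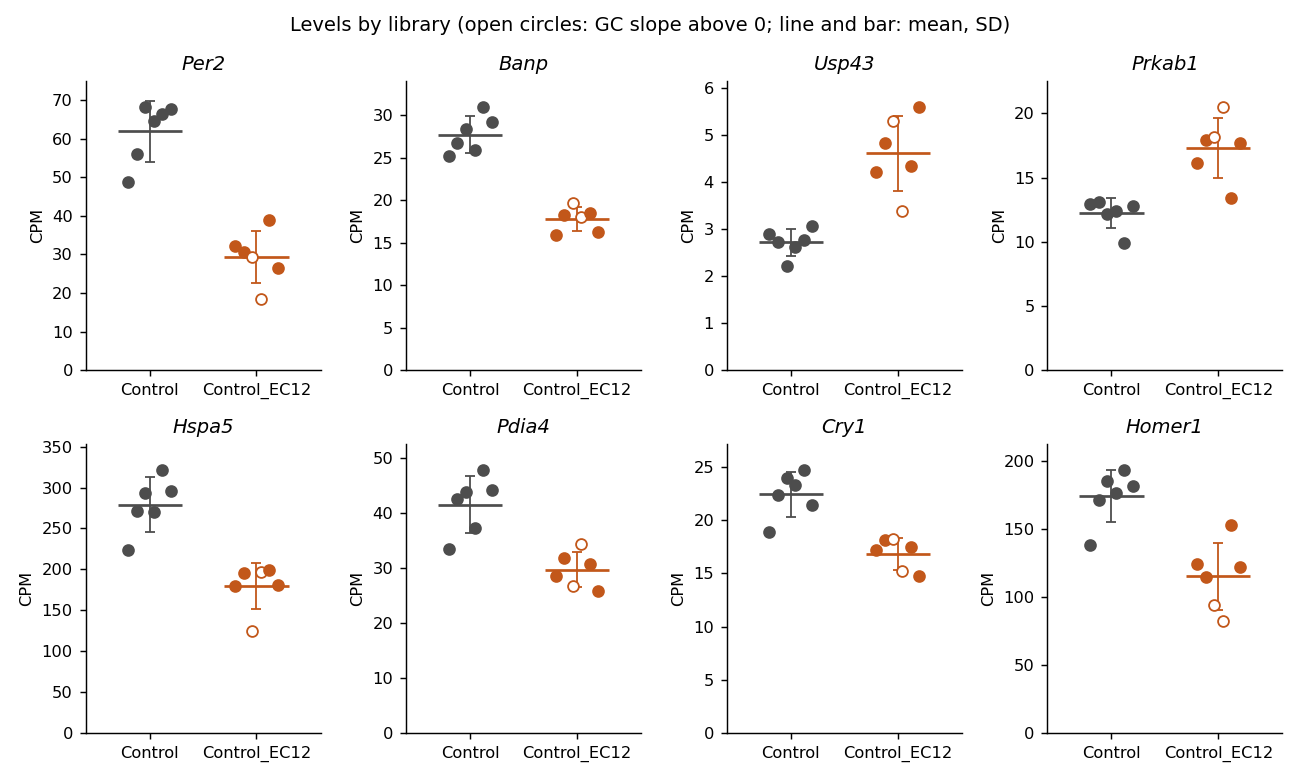
CPM of 8 genes in each Control and Control_EC12 library, with open circles for GC slopes above 0 and the mean and SD of 6 libraries. Per2, Banp and Usp43 do not overlap between the groups, and Per2 is lowest in the replicate at 18.5 CPM.

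Per2, a repressor of the circadian clock, showed the lowest p in the 24-library fit. Per2 (Gene ID 18627, GRCm38.p6 chromosome 1, 91415977 to 91459351) ran from 48.7 through a median of 65.6 to 68.1 CPM in Control. In Control_EC12 it ran from 18.5 through 30.0 to 39.0 CPM. The groups did not overlap, and all 6 Control_EC12 libraries lay below every Control library. The log2 fold change was −1.08 ± 0.141 (SE, n = 6 per group), with an edgeR adjusted p of 0.00106. With 17 libraries it was −0.95 ± 0.120, adjusted p = 0.00108. Leaving out each replicate in turn kept it between −1.17 and −0.97.

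Other clock repressors were lower too, by less. Of 10 members (Per1 to Per3, Cry1, Cry2, Bhlhe40, Bhlhe41, Nr1d1, Nr1d2 and Ciart), 9 had a negative log2 fold change with 24 libraries and 10 with 17. The medians were −0.25 and −0.18, against 0.0099 and 0.0013 over all genes. Per2 alone passed in the 24-library fit, where 0.0109% of all genes passed as lower. On the same libraries DESeq2 called 3 members lower (46 of all 18380 genes). Adding the GC slope as a covariate in edgeR gave 5 (107 of all genes). With 17 libraries 4 members fell (0.335% of all genes): Per2, Bhlhe40, Cry1 and Cry2. Summed over the list, Control libraries held 785 to 864 CPM and Control_EC12 libraries 610 to 753 CPM, with no overlap.

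Cry1 encodes a cryptochrome, the partner of PER proteins in repression (Gene ID 12952, chromosome 10, 85131700 to 85185054). It ran from 18.9 through 22.8 to 24.7 CPM in Control and from 14.8 through 17.3 to 18.2 CPM in Control_EC12. The groups did not overlap. Its log2 fold change was −0.42 ± 0.0865 (adjusted p = 0.0669) with 24 libraries and −0.41 ± 0.0813 (adjusted p = 0.026) with 17. Cry2, the second cryptochrome, had −0.15 (adjusted p = 0.493) and −0.17 (adjusted p = 0.0406), and the ranges of the groups overlapped. Bhlhe40, a repressor that competes for E-box sites, ran from 125 through 136 to 153 CPM in Control and from 82.5 through 94.4 to 119 CPM in Control_EC12. The 2 ranges were separate. Its log2 fold change was −0.50 ± 0.107 (adjusted p = 0.074) with 24 libraries and −0.51 ± 0.0867 (adjusted p = 0.0139) with 17. Bhlhe41, its relative, and Nr1d2, a nuclear receptor that represses Bmal1, did not overlap between the groups either but passed in neither fit (17-library values −0.24, adjusted p = 0.153, and −0.18, adjusted p = 0.137). Nr1d2 was 59.0 CPM in its lowest Control_EC12 library against a median of 107.

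None of 10 clock activators and output genes passed in either edgeR fit. With 17 libraries 1 had an unadjusted p under 0.05 as higher and 4 as lower, where 7.12% and 6.82% of all genes did. Nfil3, a repressor of clock output, was higher in every Control_EC12 library (10.8 to 12.6 CPM against 6.97 to 9.29 in Control), with a 17-library log2 fold change of 0.47 and an adjusted p of 0.0902. Dbp, an activator of output genes, had −0.43 with an adjusted p of 0.0702. The time of day at which tissue was taken is not given in the sources used here, and its part in the clock values was not tested.

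The start region of Cry1 is shown because E-boxes are where the clock acts on its targets. The sequence comes from RefSeq (GRCm38.p6, chr10:85185005-85185304, minus strand), 5′ to 3′, with the E-box CACGTG in capitals.

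Cry1: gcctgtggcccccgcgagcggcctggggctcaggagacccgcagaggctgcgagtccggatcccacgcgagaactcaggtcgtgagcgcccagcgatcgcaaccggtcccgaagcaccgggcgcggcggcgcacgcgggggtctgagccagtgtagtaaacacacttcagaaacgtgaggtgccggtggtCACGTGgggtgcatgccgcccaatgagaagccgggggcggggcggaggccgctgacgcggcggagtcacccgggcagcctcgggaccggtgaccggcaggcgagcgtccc

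Windows of this kind were held for 8 of the 10 clock repressors, and 4 of them contained CACGTG on either strand, against 10.7% of 14131 windows of tested genes. A match is only a match of letters. Per2 had no window in the table.

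Usp43, which encodes a deubiquitinase, rose. Usp43 (Gene ID 216835, chromosome 11, 67854523 to 67922153) ran from 2.21 through 2.75 to 3.08 CPM in Control and from 3.38 through 4.59 to 5.59 CPM in Control_EC12. The groups did not overlap. The log2 fold change was 0.76 ± 0.119 (adjusted p = 0.00571) with 24 libraries, 0.80 ± 0.118 (adjusted p = 0.00439) with 17, and 0.76 (adjusted p = 0.0951) with the 12 libraries alone.

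Banp, a chromatin protein that binds unmethylated CG-rich motifs, fell. Banp (Gene ID 53325, chromosome 8, 121947972 to 122029260) ran from 25.2 through 27.5 to 30.9 CPM in Control and from 15.9 through 18.1 to 19.6 CPM in Control_EC12. All Control_EC12 libraries were below all Control libraries, and the spread within each group was small (SD 2.16 and 1.40). The log2 fold change was −0.64 ± 0.0908 (adjusted p = 0.0021), and −0.69 ± 0.0767 (adjusted p = 0.000506) with 17 libraries.

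**Figure D3:**
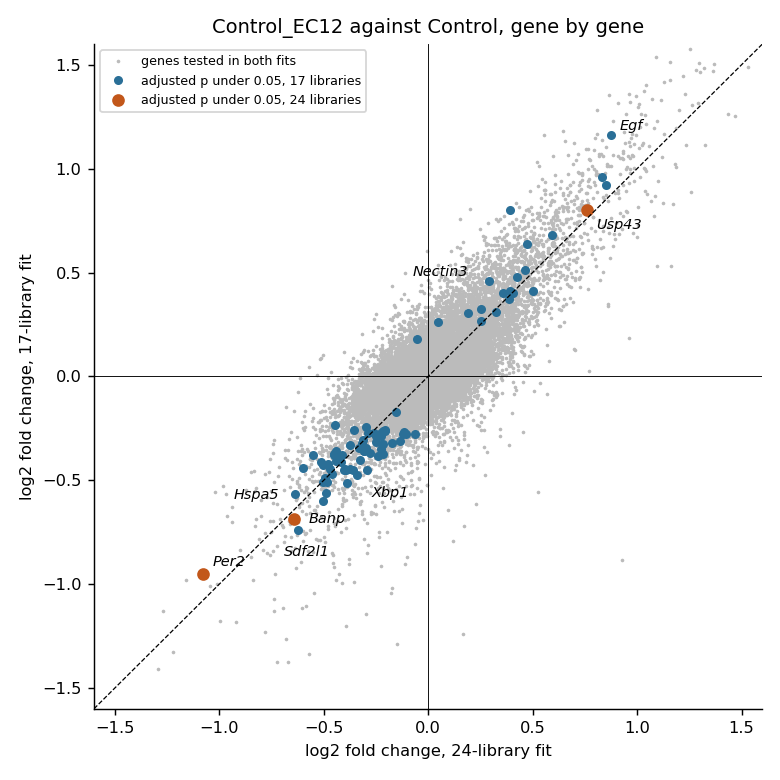
Log2 fold change of each gene in the 24-library fit (horizontal) and the 17-library fit (vertical), with genes passing an adjusted p of 0.05 in colour and the dashed line marking equal values. The 3 plotted genes passing with 24 libraries lie near the line, and most of the 87 passing with 17 lie below 0 on both axes.

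Among genes of low p with 24 libraries that did not pass there, Prkab1, Magef1 and Gjd2 passed with 17. Prkab1, a regulatory subunit of the energy sensor AMPK, ran from 9.92 through 12.6 to 13.1 CPM in Control and from 13.4 through 17.8 to 20.5 CPM in Control_EC12, without overlap. Its log2 fold change was 0.50 (adjusted p = 0.0542), and 0.41 (adjusted p = 0.0299) with 17 libraries. Magef1 (0.48, adjusted p = 0.0222) and Gjd2, the neuronal gap junction protein connexin 36 (0.68, adjusted p = 0.036), rose with 17 libraries. With 24 libraries their edgeR adjusted p was 0.0669 and 0.116. Aldh3b1, an aldehyde dehydrogenase, had 0.43 and Sat2 0.46 with 24 libraries, and neither passed in the 24-library or the 17-library fit. Both passed in DESeq2 (adjusted p = 0.0194 and 0.0176) and in edgeR with the GC slope as a covariate (adjusted p = 0.0275 and 0.0401).

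The genes that fell with 17 libraries included several kinases and signalling proteins. Map3k13 fell by 0.44 and Smad3, a transducer of TGF-beta signals, by 0.47 on the log2 scale. Trib2, a pseudokinase, fell by 0.45, Pfkfb3, which sets the pace of glycolysis, by 0.49, Sik2 by 0.37 and Stk4 by 0.26. Camk1g, a calcium-dependent kinase, fell by 0.60, Cbfa2t3, a transcriptional corepressor, by 0.56, Rhobtb2 by 0.36 and Baiap2, an actin scaffold of dendritic spines, by 0.29. Adjusted p in that fit ran from 0.00194 for Map3k13 to 0.0222 for Stk4 among these 10. None of them passed in the 24-library fit without a covariate. With the GC slope as a covariate in edgeR, where 138 of 18380 genes passed, all 10 did (adjusted p at most 0.0108, for Sik2). DESeq2 on 24 libraries called all of them except Rhobtb2 and Baiap2.

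Other genes rose with 17 libraries and did not pass in the 24-library fit. Nectin3, an adhesion protein of synapses, rose by 0.46 (adjusted p = 0.000856) but had 0.29 (adjusted p = 0.572) with 24 libraries, where its Control_EC12 libraries spread from 24.7 to 43.4 CPM. Nrep rose by 0.40, Irak2, a kinase of Toll-like receptor signalling, by 0.32, Egf, the epidermal growth factor, by 1.16 and Pskh1 by 0.37. The predicted gene Gm36109 rose by 0.92. Nectin3, Nrep and Gm36109 also passed with the GC slope as a covariate, while Irak2, Egf and Pskh1 did not.

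Chaperones of the endoplasmic reticulum were lower in Control_EC12. Of 17 members tested, 15 were negative with 24 libraries (median −0.18) and 16 with 17 (median −0.17). None passed in the 24-library fit, where 7 had an unadjusted p under 0.05. Of these, 6 were lower and 1 higher, where 3.31% and 5.62% of all genes were. On the same libraries DESeq2 called 2 lower (46 of all genes). Adding the GC slope as a covariate in edgeR gave 4 (107 of all genes). With 17, 5 fell (0.335% of all genes): Hspa5, Pdia4, Manf, Pdia6 and Sdf2l1. Summed over the list, levels ran from 1892 to 2178 CPM in Control and from 1575 to 2048 CPM in Control_EC12, and these ranges overlapped.

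Hspa5 (Gene ID 14828, chromosome 2, 34772090 to 34776529) ran from 223 through 282 to 321 CPM in Control and from 125 through 188 to 199 CPM in Control_EC12. The groups did not overlap, and replicate 3 of Control_EC12 was the lowest. The log2 fold change was −0.64 ± 0.126 (adjusted p = 0.0669) with 24 libraries and −0.57 ± 0.0899 (adjusted p = 0.0061) with 17. Pdia4, a disulphide isomerase, ran from 33.4 through 43.2 to 47.8 CPM in Control and from 25.8 through 29.6 to 34.4 CPM in Control_EC12, with an overlap of 1 library. It had −0.48 (adjusted p = 0.0669) with 24 libraries and −0.51 (adjusted p = 0.015) with 17. With 17 libraries Sdf2l1, a partner of BiP, fell by 0.74, Manf, a secreted stress-induced factor, by 0.37 and Pdia6, another isomerase, by 0.34. Creld2 had −0.33 with an adjusted p of 0.182.

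Start regions of Hspa5 and Pdia6 are shown because both fell with 17 libraries and hold the endoplasmic reticulum stress response element, searched on both strands as CCAAT and CCACG with 9 bases between them. Its last letters, CACG, can be shared with an E-box. The sequences come from RefSeq (GRCm38.p6), Hspa5 at chr2:34771840-34772139 and Pdia6 at chr12:17266339-17266638, both on the plus strand, 5′ to 3′, with the element in capitals.

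Hspa5: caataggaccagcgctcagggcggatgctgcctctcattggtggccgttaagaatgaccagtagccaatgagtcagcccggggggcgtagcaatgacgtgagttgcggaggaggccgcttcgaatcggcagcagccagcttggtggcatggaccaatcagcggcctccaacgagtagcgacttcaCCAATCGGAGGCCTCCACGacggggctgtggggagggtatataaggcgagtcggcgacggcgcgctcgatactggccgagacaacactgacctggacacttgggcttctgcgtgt

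Pdia6: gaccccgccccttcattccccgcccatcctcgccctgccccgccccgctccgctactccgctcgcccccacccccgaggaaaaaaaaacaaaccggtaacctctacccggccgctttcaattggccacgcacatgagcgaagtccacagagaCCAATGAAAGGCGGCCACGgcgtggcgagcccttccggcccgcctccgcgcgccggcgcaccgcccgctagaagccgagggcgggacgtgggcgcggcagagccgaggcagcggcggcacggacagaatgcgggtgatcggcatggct

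The element begins 65 bases before the start in Hspa5 and 98 in Pdia6. It was found in 7 of 15 chaperone windows (46.7%), against 24 of 14131 tested genes (0.17%). Calr, Canx, Hsp90b1, Dnajc3 and Creld2 hold it and passed in neither fit, while Pdia4 and Sdf2l1 do not hold it in this window.

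Regulators of the unfolded protein response had medians of −0.076 and −0.041. Of 16 members, 1 fell with 17 libraries (0.335% of all genes), Xbp1, the transcription factor whose spliced form raises chaperone genes. It had −0.47 (adjusted p = 0.00439) with 17 libraries and −0.34 (adjusted p = 0.327) with 24. Gene counts do not separate its spliced form. Herpud1 had −0.27 (adjusted p = 0.0955), Ddit3 −0.16, Syvn1 −0.14, Eif2ak3 −0.072 and Trib3 −0.38 with 17 libraries. None of 23 cytosolic and mitochondrial heat shock genes passed with 24 or 17 libraries in edgeR. With 17 libraries 22 were negative (median −0.11), and 11 had an unadjusted p under 0.05 as lower, where 6.82% of all genes did. Among them Dnajb4 had −0.27 (adjusted p = 0.0639, and 0.0168 with the GC slope as a covariate) and Dnajb5 −0.31 (adjusted p = 0.155).

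**Figure D4:**
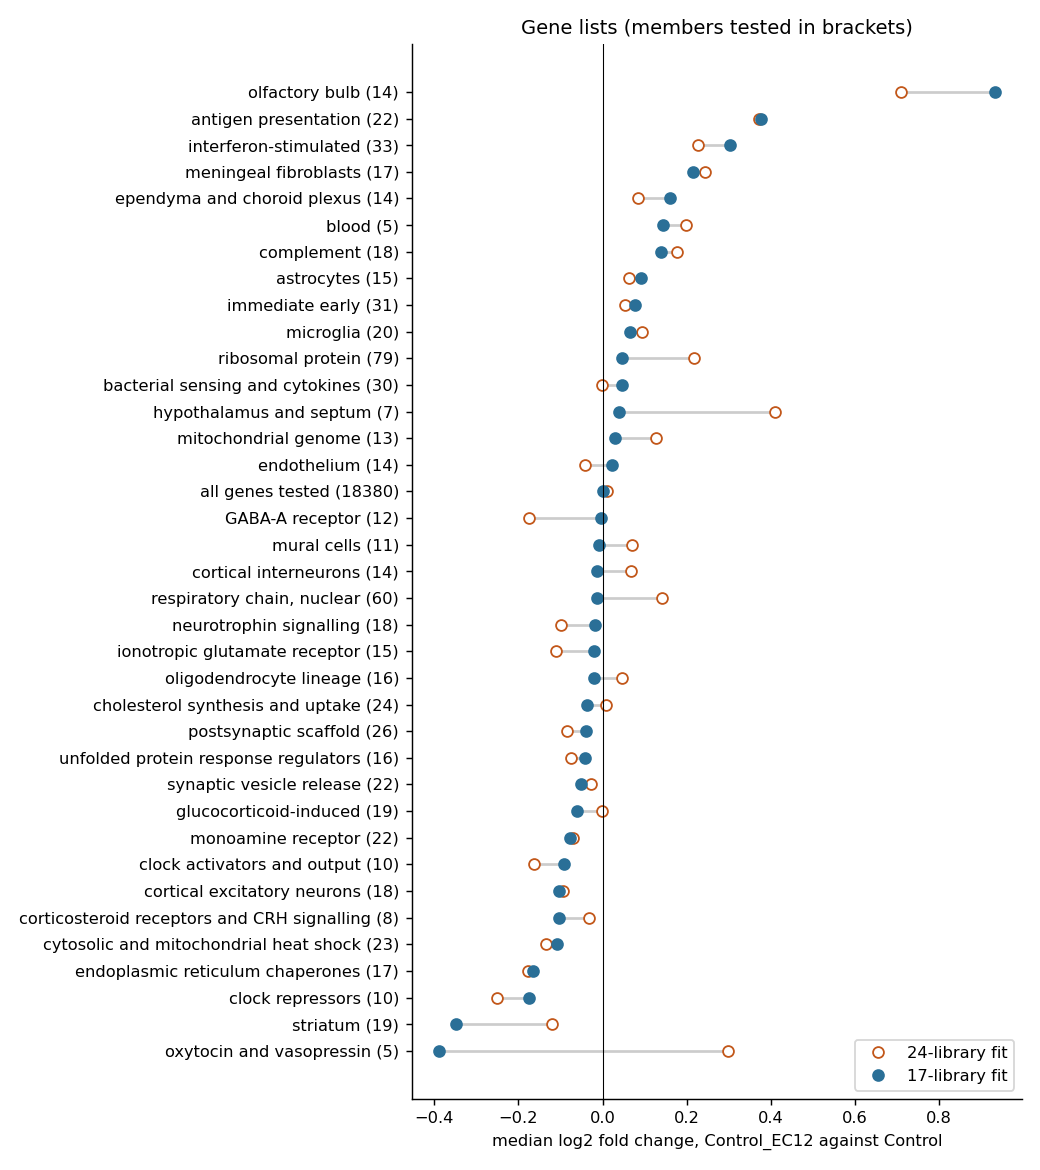
Median log2 fold change of each gene list in the 24-library fit (open circles) and the 17-library fit (filled circles), ordered by the second, with the number of members tested in brackets. Antigen presentation lies near 0.37 in both fits, and ribosomal protein genes move from 0.22 to 0.047.

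Most antigen presentation genes had positive fold changes without passing the test. Of 22 antigen presentation genes, 21 were positive with 24 libraries, with a median of 0.37, and 12 had an unadjusted p under 0.05 as higher, where 5.62% of all genes did. With 17 libraries 20 were positive and 11 had such a p, where 7.12% of all genes did. None passed after adjustment in either edgeR fit. Cd74, the chaperone of class II molecules, ran from 3.87 through 4.38 to 5.12 CPM in Control and from 4.94 through 7.10 to 9.76 CPM in Control_EC12, with 5 of 6 libraries above the Control range. It had 0.69 (adjusted p = 0.164) and 0.61 (adjusted p = 0.106) in the 2 fits. H2-Ab1, a class II chain, had 0.66 (adjusted p = 0.199) and 0.48 (adjusted p = 0.254).

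Interferon-stimulated genes lay in the same direction. Of 33 members, 31 were positive in both fits, with medians of 0.23 and 0.30. Iigp1, a GTPase of cell-autonomous defence, rose with 17 libraries (0.96, adjusted p = 0.0343, where 0.12% of all genes passed as higher), and was 0.88 CPM in its lowest Control_EC12 library against 0.86 to 1.37 in Control. Ifi27 had 0.31 (adjusted p = 0.0575), Oasl2 0.68, Ifit2 0.40, Lgals3bp 0.35 and Irf7 0.60 with 17 libraries, none passing. Complement genes had medians of 0.18 and 0.14, with C1qb at 0.35 and 0.15, C4b at 0.24 and 0.28, and no member passing. In Control_EC12, C1qb was 47.7 CPM in replicate 3 and 59.0 CPM in replicate 4, against 35.6 to 39.2 CPM in the other libraries.

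Genes that sense bacteria, and cytokines, did not lean either way. Over 30 members tested the median was −0.0009 with 24 libraries and 0.047 with 17, and none passed. With edgeR, 3 had an unadjusted p under 0.05 as higher and 1 as lower in each fit. Over all genes the shares were 5.62% and 3.31% with 24 libraries, and 7.12% and 6.82% with 17. Tlr2, the receptor for lipoproteins of bacteria such as Enterococcus, ran from 0.57 through 0.95 to 1.57 CPM in Control and from 0.93 through 1.27 to 1.45 CPM in Control_EC12, with a log2 fold change of 0.27 (adjusted p = 0.682). Nlrp3, an inflammasome sensor, had −0.45 and Pycard, its adaptor, 0.39 with 24 libraries. Tlr8, Tnf and Il6 were too low to test, and Il10 had no count in the 12 libraries.

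Markers of microglia had medians of 0.094 and 0.066, with none of 20 passing. Tmem119 had −0.056 and −0.23, and Ly86 0.34 and 0.23. Meningeal fibroblast markers had medians of 0.24 and 0.22, and their summed level ran from 291 to 332 CPM in Control and from 319 to 413 CPM in Control_EC12. Slc6a13 had 0.51 and Aldh1a2 0.37 with 24 libraries, and no member passed. In bulk tissue more cells of a type and more RNA per cell cannot be told apart. The part of these cells in the immune values was not tested.

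Activity-dependent genes were mixed. Of 31 immediate early genes, 1 rose (0.12% of all genes) and 2 fell (0.335% of all genes) with 17 libraries. None passed in the 24-library fit. On the same libraries DESeq2 called Homer1 lower, and edgeR with the GC slope as a covariate called Homer1 and Ier5 lower. Jun passed in neither of these. Jun rose by 0.31 (adjusted p = 0.036) and had 69.8 CPM at the median of Control_EC12 against 53.3 in Control, without overlap. Homer1, a postsynaptic scaffold with an activity-induced short form, fell by 0.44 (adjusted p = 0.026), and Ier5 by 0.40 (adjusted p = 0.0181). With 24 libraries Homer1 had −0.60 (adjusted p = 0.0669), and it ran from 138 through 179 to 194 CPM in Control and from 82.5 through 119 to 153 CPM in Control_EC12. Fosb had 0.56, Tiparp 0.35 and Rgs2 −0.23 with 17 libraries, none passing. Homer1 was also the 1 member of 26 postsynaptic scaffold genes to pass with 17 libraries, where 0.335% of all genes passed as lower. Lrrtm2 had −0.26 (adjusted p = 0.0548), Lrrtm1 −0.21, Homer3 0.40, Dlgap3 −0.17 and Dlgap4 −0.12.

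Receptor, transmitter and neurotrophin lists held no gene that passed in either edgeR fit. Htr1b, an inhibitory serotonin receptor, was lower in every Control_EC12 library (13.8 to 19.1 CPM against 22.1 to 26.4 in Control), at −0.59 (adjusted p = 0.116) with 24 libraries and −0.55 (adjusted p = 0.0627) with 17. Adra2c had −0.072 and −0.36 in the 2 fits. Syp and Cplx2, of the synaptic vesicle list, had −0.13 and −0.14 with 17 libraries. In that fit Gabra4 had −0.12, Gabra5 0.12, Grik5 −0.11 and Gria4 0.11. With 1 replicate left out of the 24, Gria4 ran from −0.18 to 0.0091. The GABA-A list had a median of −0.17 with 24 libraries and −0.0042 with 17. Oxtr, the oxytocin receptor, ran from 8.73 through 10.3 to 11.8 CPM in Control and from 7.27 through 8.80 to 10.5 CPM in Control_EC12. With 24 libraries it had −0.23 (edgeR adjusted p = 0.56). In the same fit Cd38 had 0.30, Bdnf, a neurotrophin, −0.30 (edgeR adjusted p = 0.582) and Shc3 −0.26.

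Stress-hormone genes did not pass in either edgeR fit. Fkbp5, induced by glucocorticoids, ran from 33.8 through 35.5 to 38.7 CPM in Control and from 29.6 through 30.6 to 32.7 CPM in Control_EC12. The ranges were separate, but the log2 fold change was −0.21 with an adjusted p of 0.33. Plin4 had −0.90 (adjusted p = 0.164), and DESeq2 called it (adjusted p = 0.0289). Nr3c1, the glucocorticoid receptor, had −0.30 and Crhr1 0.26. Cholesterol genes had medians of 0.009 and −0.036, with Insig1 at 0.18 and Mvd at −0.061 with 24 libraries.

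**Figure D5:**
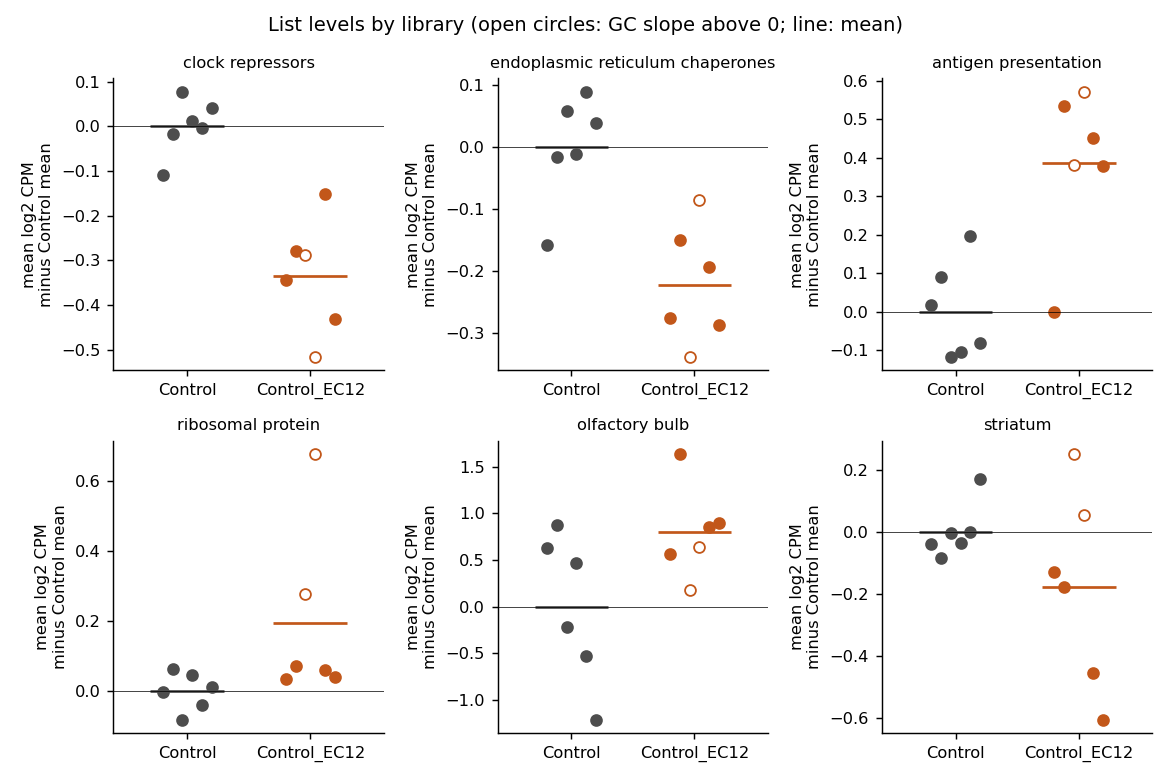
Mean log2 CPM of 6 gene lists in each library, relative to the Control mean, with open circles for GC slopes above 0 and lines for group means. Clock repressors do not overlap between the groups, and the highest ribosomal protein values are the 2 libraries with slopes above 0.

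Ribosomal protein genes moved with the libraries that stood apart. Their summed level was 12705 to 13957 CPM in Control, 13733 to 14040 CPM in the 4 Control_EC12 libraries with slopes below 0, 16019 CPM in replicate 3 and 21248 CPM in replicate 4. Of 79 members, 79 were positive with 24 libraries (median 0.22) and 69 with 17 (median 0.047). None passed in edgeR. As higher, 36 had an unadjusted p under 0.05 with 24 libraries (5.62% of all genes) and 8 with 17 (7.12% of all genes). Rps15a had 0.21 and 0.13, and Rps19 0.36 and 0.14. Nuclear genes of the respiratory chain had medians of 0.14 and −0.014, with Uqcrb at 0.25 and 0.11 and Ndufv3 at 0.24 and 0.057. Genes of the mitochondrial genome had medians of 0.13 and 0.029, with COX3 at 0.22 and 0.01 and ND3 at 0.26 and −0.017.

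Markers of tissue next to the prefrontal cortex differed between libraries. The 14 olfactory bulb markers summed to 89.8 to 344 CPM in Control and 213 to 607 CPM in Control_EC12, with medians of log2 fold change of 0.71 and 0.93, all 14 positive in both fits and none passing. With 17 libraries 12 of them had an unadjusted p under 0.05 as higher in edgeR, where 7.12% of all genes did. Among them Lbhd2 had 0.70 and Dlx1 0.49 with 24 libraries. The 19 striatal markers summed to 2168 to 2601 CPM and 1577 to 2868 CPM, with medians of −0.12 and −0.35. With 17 libraries 12 of these markers had an unadjusted p under 0.05 as lower, where 6.82% of all genes did, and Tac1 had −0.38 and Pdyn −0.31. No marker of either list was at 0 in all 12 libraries. The part of this tissue in the results above was not tested.

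Cell classes of the cortex had no marker that passed in either edgeR fit. Cortical excitatory neuron markers had medians of −0.095 and −0.10, with Neurod6 at −0.41 and Bcl11b at −0.24 with 24 libraries. Their summed levels, 9494 to 11101 CPM in Control and 9114 to 10904 CPM in Control_EC12, were high in every library. Interneuron markers had medians of 0.068 and −0.014, with 9 of 14 positive with 24 libraries and 6 with 17. Single members ran from −0.25 to 0.76 with 24 libraries and from −0.39 to 0.88 with 17. In the 17-library edgeR fit 3 had an unadjusted p under 0.05 as higher and 2 as lower. Over all genes the shares were 7.12% and 6.82%. Sst had −0.013 and −0.29, and Lhx6 −0.25 and −0.39. Astrocyte markers had medians of 0.063 and 0.092. Gfap was higher in every Control_EC12 library, from 126 through 135 to 153 CPM against 90.1 through 109 to 119 CPM. Its log2 fold change was 0.34 (edgeR adjusted p = 0.342). S100b had 0.16. Medians in the 2 fits were 0.047 and −0.021 for oligodendrocyte markers (9 of 16 positive, then 7). They were −0.041 and 0.022 for endothelial markers (5 of 14 positive, then 9). For mural markers they were 0.071 and −0.0086 (6 of 11 positive, then 5), and for blood markers 0.20 and 0.14. Single values with 24 libraries were Opalin 0.34, Olig1 0.18, Mfsd2a −0.35, Slco1a4 0.063, Vtn 0.40, Myl9 0.38, Hbb-bt 0.22 and Hba-a1 0.20. No member of these lists passed in either edgeR fit. Choroid plexus and ependymal markers had medians of 0.084 and 0.16, with Clic6 at −0.41. Ttr, made by the choroid plexus, ran from 0.11 to 0.86 CPM in Control and from 0.11 to 4.64 CPM in Control_EC12. Of the hypothalamic list, Trh had 0.80 and Zic1 0.18.

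Whether the supplement acted differently after maternal separation was tested as the interaction of rearing and supplement. Of 18380 genes, 2 (0.0109%) passed with 24 libraries, Banp and Bhlhe40. For Banp the log2 fold change with EC-12 was −0.64 without separation and 0.20 after it, a difference of 0.84 ± 0.128 (adjusted p = 0.0152). For Bhlhe40 the values were −0.50 and 0.39, a difference of 0.89 ± 0.152 (adjusted p = 0.0379). Plin4 (1.65, adjusted p = 0.112), Xdh (1.11, adjusted p = 0.144) and Per2 (0.98, adjusted p = 0.152) were next and did not pass. For Per2 the log2 fold change with EC-12 after separation was −0.096.

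With 17 libraries Banp (0.63, adjusted p = 0.182) and Bhlhe40 (0.61, adjusted p = 0.332) no longer passed, and Nectin3 (−0.69, adjusted p = 0.0082) and Jun (−0.68, adjusted p = 0.0484) did (0.0105% of 19098 genes). Only 2 MS_EC12 libraries remain in that fit, because 4 of the 6 had GC slopes above 0. There the log2 fold change with EC-12 after separation was −0.055 for Banp (edgeR adjusted p = 0.909) and 0.10 for Bhlhe40 (edgeR adjusted p = 0.832). With 24 libraries these values were 0.20 for Banp (edgeR adjusted p = 0.144) and 0.39 for Bhlhe40 (edgeR adjusted p = 0.0774), and neither passed. The MS libraries themselves had 19.4 CPM of Banp at the mean, against 27.7 in Control, and 81.9 CPM of Bhlhe40 against 138. Of the 87 genes that passed in Control_EC12 with 17 libraries, 69 (79.3%) had the same sign in MS_EC12 against MS, which has no library in common. Over all genes 60.1% did. With 24 libraries 3 of the 4 genes that passed had the same sign (75%), against 72.2% of all genes.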

How the data were processed

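Gene expression was measured by RNA-seq of prefrontal cortex in 24 libraries, 6 per group. A stranded mRNA kit was used, per the labels' protocols. Build mm10, HISAT2 2.1.0, StringTie 2.1.3b, Trimmomatic 0.38 and FastQC 0.11.7 appear in the submitters' processing notes, and how reads were counted is not stated there. The deposited values are raw read counts per gene, not normalized by the authors, with FPKM values the authors computed (not used) and TPM values the authors computed (used for 1 alternative). Gene counts were tested by edgeR 4.0.16 (quasi-likelihood F test, R 4.3.3) over all 24 libraries, with a coefficient for each group, TMM scaling and filterByExpr (minimum count 10, minimum total 15). P-values are 2-sided and adjusted over all genes by the Benjamini-Hochberg method. CPM values are scaled by TMM.

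Alternatives were size factors of the DESeq2 type, DESeq2 1.42.0, no filter, the 12 libraries alone, 17 libraries without GC slopes above 0, the slope as a covariate, a replicate block, limma 3.58.1 on log2(TPM + 1) and each replicate left out. GC content came from the longest transcript in GENCODE M21 for 17031 tested genes. Coordinates and promoter sequences came from RefSeq GRCm38.p6. On simulated counts for this comparison with 200 of 18380 genes changed, 41% of 1.5-fold and 83% of 2-fold changes were recovered, with 4 false calls. The simulated counts were drawn gene by gene, without library differences that follow GC content or tissue markers. These shares therefore need not hold for the measured libraries.

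Named genes were the 10 of smallest p in each direction in both fits, up to 6 members of each of 36 lists by the smaller p of the 2 fits (6 where a member passed with 17 libraries, 2 otherwise, a split set after seeing the data), the 5 of smallest interaction p and 10 candidates. Predicted gene models were named only where they passed, and 2 genes the rule names are not reported here. Members and lists were chosen with earlier results of these data known. Reads of near-identical copies (haemoglobin, class I histocompatibility and ribosomal protein genes) and of overlapping genes could be split between copies.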

Additional observations from a re-analysis of the deposited data

Results flagged for a closer look

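A library stood apart from the other 5 of its group, by a gap past Dixon's 95% critical value, in 17 of 242 groups of values tested. Chance gives about 1 in 20, here 12.1. Control_EC12 replicate 4, whose GC slope is above 0, held 9 of them. Control_EC12 replicate 4 was lowest for Sik2 at 34.8 CPM (others 48.5 to 52.3), lowest for Irak2 at 17.2 CPM (others 21.9 to 24.6), highest for Pdia6 at 101 CPM (others 75.5 to 82.4), highest for Ddit3 at 23.8 CPM (others 14.7 to 17.6), highest for Rps15a at 197 CPM (others 151 to 167), highest for Rps19 at 178 CPM (others 97.2 to 116), highest for Uqcrb at 87.8 CPM (others 50.4 to 63.4), highest for COX3 at 8110 CPM (others 4399 to 5765) and highest for Myl9 at 23.7 CPM (others 10.9 to 15.5). Control_EC12 replicate 3 was lowest for Hspa5 at 125 CPM (others 180 to 199), highest for Rhobtb2 at 152 CPM (others 111 to 126) and lowest for Slco1a4 at 15.4 CPM (others 38.5 to 44.9). Control replicate 1 was lowest for Trib2 at 42.9 CPM (others 48.8 to 52.2) and highest for Insig1 at 73.7 CPM (others 61.9 to 66.2). Control replicate 2 was highest for Bhlhe41 at 42.3 CPM (others 39.5 to 40.5). Control replicate 4 was highest for Plin4 at 4.51 CPM (others 2.34 to 2.97). Control replicate 5 was lowest for Prkab1 at 9.92 CPM (others 12.2 to 13.1).

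With 24 libraries the effect of EC-12 differed between the rearings for Banp, by 0.84 on the log2 scale (edgeR adjusted p = 0.0152). For Bhlhe40 it differed by 0.89 (edgeR adjusted p = 0.0379). Neither passed with 17 libraries, at 0.63 (edgeR adjusted p = 0.182) and 0.61 (edgeR adjusted p = 0.332). That fit holds only 2 MS_EC12 libraries.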

How the results depend on the processing

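The number of genes changed between Control_EC12 and Control depended on the fit. It was 4 with 24 libraries, 74 with DESeq2, 2 with the 12 libraries alone (Per2 and Banp), 87 without the libraries of GC slope above 0, 138 with the slope as a covariate, and 2 with limma on log2(TPM + 1), of which 1 was among the 4. A fit chosen after seeing the data, without those libraries and with only the 2 groups, gave 175. DESeq2-type size factors and no filter on low counts each gave 4. Leaving out 1 replicate gave 4 to 24: 24 without Control replicate 1 and 7 without Control_EC12 replicate 3. Without MS_EC12 replicate 3, which is in the fit but not in the comparison, 12 passed. All 4 genes passed in each of these leave-one-out fits. The mean difference in GC slope was 0.0254 to 0.144 with each replicate left out.

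Genes whose EC-12 effect differs between rearings numbered 2 with 24 libraries, 19 with DESeq2, 1 with no filter, 7 with the slope as a covariate, and 1 to 4 with 1 replicate left out.

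With a replicate block, 33 genes changed and 9 differed between rearings. Libraries of the same number correlated at −0.025 to 0.122 over genes and 3 of 6 Control libraries correlated best with their own number, so the numbers do not establish a pairing.

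Of 120 named genes, 9 changed sign in some fit, 31 times in all, with adjusted p from 0.241 to 1.000 there. Gria4 was 0.11 with 17 libraries, 0.028 with the covariate and 0.11 with the 2 groups only, and ND3 was −0.017 with 17 libraries and −0.014 with the 2 groups only. Gabra5 was −0.019 and Slco1a4 −0.021 with limma, and Dlgap3 was 0.000056 with the 12 libraries alone. With 1 replicate left out, values ran from −0.086 to 0.040 for Dlgap3, −0.081 to 0.017 for Syp, −0.067 to 0.014 for Grik5, −0.18 to 0.0091 for Gria4, −0.18 to 0.0093 for Adra2c, −0.15 to 0.044 for Sst and −0.0037 to 0.22 for Slco1a4. The cause was not tested. At these depths genes under about 1 CPM are imprecise.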
